A study of Mus musculus with 6 samples.

Results

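In all, 50 genes of the TGF-beta, activin and BMP pathway were measured in 6 cell lines grown from mouse lung tumours. The genes were chosen by symbol: 14 ligands, 11 receptors, 8 SMADs, 5 genes of ligand storage and processing, 7 antagonists and 5 nuclear repressors or ubiquitin ligases. All 50 were on the array, with 73 of its 41174 probes. For 47 of them a probe was bright enough to be tested, among 19848 features tested in all (13322 genes with a symbol and the remaining probes without one).

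The lines came from lung tumours of C57BL/6J mice of the genotype Rb1L/L, Trp53L/L, a mouse model in which small cell lung tumours arise, so both groups share this background. The labels put the lines in 3 pairs, each of 1 line called non-SMC and 1 called SMC, which gives 3 lines a group with 1 array each. Pairs 1 and 3 are female and pair 2 is male. What SMC stands for, the age of the mice, how recombination was induced and whether a line is clonal are not stated there. All lines were grown in RPMI medium with fetal bovine serum, and nothing says that more than 1 culture of a line was taken. The p-values of the paired fit thus measure how the difference between SMC and non-SMC lines varies over the 3 pairs, not over cultures of a line.

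Ligands of this family are secreted as dimers, and the TGF-betas are stored in the matrix in a latent form, held there by latent TGF-beta binding proteins. An active ligand joins type I and type II receptor kinases, which phosphorylate receptor SMADs. SMAD2 and SMAD3 carry TGF-beta and activin signals, SMAD1, SMAD5 and SMAD9 carry BMP signals, and both sets enter the nucleus with SMAD4. Secreted antagonists, inhibitory SMADs, nuclear repressors and ubiquitin ligases restrain the pathway, which is known in tumours for its part in matrix production and in the change from an epithelial to a mesenchymal form.

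Levels are log2 signals with the array's own 75th percentile set to 0, and 1 unit is a doubling. Differences are SMC minus non-SMC, as the mean of 3 pairs with the standard error (SE) of a paired limma fit. A gene passed the test if its p-value, adjusted over all 19848 features, was under 0.05. Levels of different probes are not comparable. A probe called detected was well above background on that array. Between 64.1% and 68.5% of all probes were detected on an array, and no probe was saturated. Of the 50 genes, 46, 47 and 49 were detected by any probe in the non-SMC lines of pairs 1 to 3, and 41, 41 and 44 in the SMC lines. Rb1 and Trp53 differed by 2.02 and -0.09 (adjusted p = 0.113 and 0.867); whether their probes lie inside the deleted part is unknown, so their levels check nothing.

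Pathway genes were lower in the SMC lines where they differed beyond the threshold. Of the 47 tested genes, 8 passed as lower (17%, against 3.03% of all features) and none as higher (0.156% of all features), where 3.19% of all features passed in either direction. At an unadjusted p under 0.05 limma put 22 of the 47 lower and 4 higher, against 11.8% and 14.9% of all features. The 8 are the activin subunit Inhba, the ligand Bmp4, the receptor Tgfbr2, Smad3, the latent TGF-beta binding proteins Ltbp1, Ltbp2 and Ltbp3, and the BMP antagonist Grem1. Their differences ran from -12.86 for Inhba to -3.23 for Smad3. The median difference was -0.91 over the 47 genes and 0.18 over all features, and 34 of the 47 were negative (72.3%, against 41.7%). In 23 of the 47 genes every SMC line lay below every non-SMC line (48.9%, against 15.4% of all features), and in 3 every SMC line lay above (6.38%, against 22.8%). With each array scaled to its median instead, 13 of the 47 were lower and none higher, and 974 features were lower and 239 higher (602 and 31 with the 75th percentile). Without the filter on dim probes 5 of the 47 were lower (1.2% of all features were called in either direction). With only genes detected on all 6 arrays 2 were lower, Ltbp1 and Ltbp3 (0.85% of features called). That setting did not test Inhba, Bmp4, Tgfbr2, Ltbp2 and Grem1. Inhba, Bmp4, Tgfbr2, Ltbp2 and Grem1 were detected on all non-SMC but not all SMC arrays, so they entered the test through the non-SMC group alone, where they are high. Tgfb2, Bmpr1b, Bmp2, Bmp6 and Tgfbr3 entered by the same route, whereas Bmp7 and Smad9 entered through the SMC group alone. The counts above of negative genes, of unadjusted p and of the 23 genes without overlap include genes kept in this way. Among the 23 they are the 5 called genes, Tgfb2 and Bmpr1b. The 39 tested genes that did not pass are described by their values.

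**Figure D1:**
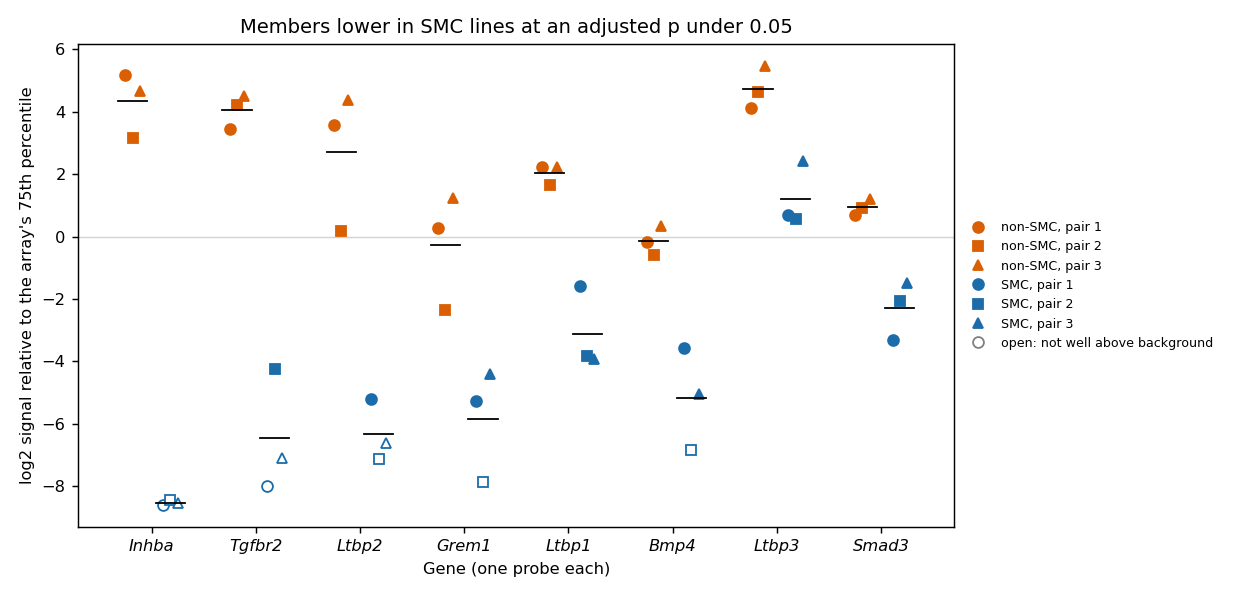
Levels of the 8 genes that passed as lower in SMC, on the vertical axis as log2 signal relative to the array's 75th percentile; each point is 1 line (orange non-SMC, blue SMC, shape by pair), an open point was not well above background, and bars are group means. For each gene the highest SMC line lies below the lowest non-SMC line, and all 3 Inhba points of the SMC lines are open, near -8.5.

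The groups differed in many other genes, and in whole cultures fewer cells of a type and less RNA per cell cannot be told apart. Of 15 tested mesenchymal and fibroblast markers, 11 were lower in SMC (73.3%, against 3.03% of all features). Their summed signal was 330 to 1080 in the non-SMC and 1.36 to 5.27 in the SMC lines, in multiples of the array's 75th percentile. On an SMC array 8 to 10 of the 16 markers were detected, against 15 or 16 on a non-SMC array. Of 14 tested neuroendocrine markers none passed by limma (12 were higher at an unadjusted p under 0.05, as were 14.9% of all features). Their summed signals were 331 to 434 in SMC and 21.7 to 174 in non-SMC lines. The summed smooth muscle markers were at 9.09 to 13 in SMC and 32.8 to 90.3 in non-SMC lines. Per SMC array 6 or 7 of the 9 were detected. None of the 6 tested passed the threshold (by limma 5 were lower at an unadjusted p under 0.05, as were 11.8% of all features). Epithelial markers ranged from 10.9 to 530 in SMC and 3.24 to 652 in non-SMC lines, and leukocyte markers from 0.176 to 1.43 and 0.337 to 3.53. Of 8 endothelial markers, 5 (Pecam1, Cdh5, Tie1, Emcn and Cldn5) were detected on no array and Vwf on all 6; their summed signal, 0.321 to 21 in SMC and 0.0888 to 12 in non-SMC lines, did not sort by group. The part of these markers in the pathway's differences was not tested.

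The arrays lay on 3 slides, and 4 of them shared 1 slide: both lines of pair 2, the SMC line of pair 1 and the non-SMC line of pair 3. On that slide alone, without pairing, 4 of the 47 genes were lower and none higher: Inhba and Ltbp3 of the 8, and Tgfb2 and Fstl1. When the shared slide entered the paired fit as a further term, 6 were lower: Inhba, Tgfbr2, Ltbp1, Ltbp2 and Grem1 of the 8, and Fstl1. The shared slide alone called 612 features lower and 20 higher (3.18%), and the further term 466 and 9 (2.39%). This term leaves the size of a difference as it was. Among the genes whose 6 levels follow, the difference on the shared slide was over 1.5 times larger or smaller for Bmp6 (-1.94), Bmp7 (2.44), Gdf11 (-0.86), Inhbb (-1.54), Bmp2 (0.12) and Fstl3 (-1.47), and it turned sign for Smad2 (0.12) and Ltbp4 (-0.93).

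Upstream sequences are shown for Tgfbr2, Grem1 and Bmp4, which were lower, and for Tgfbr1, the type I partner of Tgfbr2, which did not pass. Of the 50 genes, 36 matched the RefSeq promoter table (GRCm38.p6) by symbol, all 8 lower genes among them; the first 3 are those with the largest difference among the 5 of these 8 whose listed start is the outer end of the gene. Each is the 250 bases before the start site, on the gene's strand, 5′ to 3′: Tgfbr2 at chr9:116175364-116175613 (minus strand), Grem1 at chr2:113758649-113758898 (minus), Bmp4 at chr14:46390670-46390919 (minus) and Tgfbr1 at chr4:47352972-47353221 (plus). Capitals mark the SMAD box CAGAC, the GC-rich SMAD motif GGCGCC, the AP-1 motif TGANTCA and the TEAD motif GGAATG, each searched on both strands.
Tgfbr2: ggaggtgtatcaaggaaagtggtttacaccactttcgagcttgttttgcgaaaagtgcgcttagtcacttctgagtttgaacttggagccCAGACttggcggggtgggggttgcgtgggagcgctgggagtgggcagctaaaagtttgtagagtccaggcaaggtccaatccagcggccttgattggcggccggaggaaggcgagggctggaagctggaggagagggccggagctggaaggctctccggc
Grem1: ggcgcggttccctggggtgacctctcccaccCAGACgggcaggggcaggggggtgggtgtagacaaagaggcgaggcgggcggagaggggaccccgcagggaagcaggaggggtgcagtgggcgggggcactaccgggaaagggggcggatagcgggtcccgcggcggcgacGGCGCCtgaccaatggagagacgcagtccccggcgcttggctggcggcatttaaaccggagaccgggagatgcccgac
Bmp4: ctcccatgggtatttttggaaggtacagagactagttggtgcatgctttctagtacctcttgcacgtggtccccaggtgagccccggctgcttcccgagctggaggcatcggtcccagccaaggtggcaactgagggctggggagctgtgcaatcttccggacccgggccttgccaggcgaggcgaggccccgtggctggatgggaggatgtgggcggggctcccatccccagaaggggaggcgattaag
Tgfbr1: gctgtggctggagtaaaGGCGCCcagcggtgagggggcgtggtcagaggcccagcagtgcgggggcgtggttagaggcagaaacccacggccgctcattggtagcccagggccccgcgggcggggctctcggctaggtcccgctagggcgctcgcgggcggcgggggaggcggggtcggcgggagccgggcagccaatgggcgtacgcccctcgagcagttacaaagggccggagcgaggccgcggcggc
In these 250 bases Tgfbr2 holds 1 SMAD box, Grem1 1 SMAD box and 1 GC-rich SMAD motif, Tgfbr1 1 GC-rich SMAD motif, and Bmp4 none of the 4. In the table's full windows of 300 bases, which run 50 bases past the start, the SMAD box stood in 5 of the 8 lower genes, 12 of 27 other tested members and 49.7% of 27025 genes. The GC-rich motif stood in 1 of 8, 9 of 27 and 12%, the AP-1 motif in 1 of 8, 0 of 27 and 7.93%, and the TEAD motif in 0 of 8, 0 of 27 and 14.6%. None of the motifs overlaps another in the sequences shown, and a match is a description of letters only.

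Among the activin and inhibin subunits, Inhba was bright in non-SMC lines and at background in SMC lines. Inhba encodes the subunit that forms activin A. Its level was 5.18, 3.14 and 4.66 in the non-SMC lines of pairs 1 to 3 and -8.60, -8.44 and -8.55 in the SMC lines of the same pairs. No SMC array detected it, so the groups do not overlap and the fold is a bound: Inhba was at least 1580-fold lower in SMC (fitted difference -12.86 ± 0.54, adjusted p = 0.00704; -10.63 with dim signals set to the lowest level detected on that array, called the floor). On the shared slide its difference was -12.42. With normexp background correction the Inhba difference was -7.75, smaller than the bound, which holds for the processed signal alone. Inhbb encodes the subunit of activin B, and its lines did not sort by group. It read -2.50, 1.62 and 1.14 in the non-SMC lines and 1.75, -2.07 and -2.16 in the SMC lines. The SMC line of pair 1 was higher than its partner and those of pairs 2 and 3 were lower, so the difference of -0.91 ± 1.83 (adjusted p = 0.777) averages opposite signs. A dimmer Inhbb probe differed by -0.35. Inha encodes the alpha subunit, which with a beta subunit makes inhibin, an antagonist of activin. It read -2.27, -0.02 and -1.66 in the non-SMC lines and 0.72, 1.98 and -0.69 in the SMC lines. The 3 SMC minus non-SMC differences ran from 0.97 to 2.98, although the groups overlap by this probe, and the difference of 1.99 ± 0.49 (adjusted p = 0.124) did not pass. Its other, dimmer probe differed by 2.24, with no overlap between groups. That probe was not detected in the non-SMC line of pair 3.

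The 3 TGF-beta ligands were each lower in all 3 pairs without passing the test. Tgfb1 read 1.52, 0.35 and 0.71 in the non-SMC lines and -2.65, -1.02 and -2.74 in the SMC lines, a difference of -3.00 ± 0.65 (adjusted p = 0.11). Its highest SMC line lay below its lowest non-SMC line, and all 6 lines were detected. Tgfb2 read 1.56, 1.75 and 1.32 in the non-SMC lines and -6.49, -7.63 and -2.08 in the SMC lines. The non-SMC lines lay within 0.43 of each other, whereas only the SMC line of pair 3 was detected among the SMC lines, and the difference was -6.95 ± 1.30 (adjusted p = 0.0921). It passed in 5 of 21 alternatives, among them the shared slide (-8.60, adjusted p = 0.0132) and the fit without the pair. Tgfb3 read 4.37, 3.66 and 3.73 in the non-SMC lines and 2.88, 1.87 and 2.40 in the SMC lines. It was detected on all arrays at a difference of -1.54 ± 0.29 (adjusted p = 0.0935), with pairs between -1.79 and -1.33.

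Bmp4 was the only BMP ligand past the threshold. It read -0.16, -0.58 and 0.33 in the non-SMC lines and -3.58, -6.84 and -5.05 in the SMC lines. The groups do not overlap, 2 of 3 SMC arrays detected it, and the difference was -5.02 ± 0.65 (adjusted p = 0.0467). It was -5.09 on the shared slide (adjusted p = 0.156) and had an adjusted p of 0.0722 with the slide block. Bmp7, a ligand of kidney development, varied most between pairs of all 47 genes. It read -6.72, 1.54 and -0.78 in the non-SMC lines and 4.57, 1.07 and 0.11 in the SMC lines. The SMC line of pair 1 exceeded its partner by 11.30, while pairs 2 and 3 differed by -0.47 and 0.89, and both Bmp7 probes gave this pattern. Bmp2, a bone-inducing ligand, also split: it read -3.02, -3.44 and -5.58 in the non-SMC lines and -6.80, -1.98 and -2.45 in the SMC lines. Pair 1 differed by -3.78 and pairs 2 and 3 by 1.46 and 3.13, a mean of 0.27 ± 1.49 (adjusted p = 0.924). Bmp6 read -2.40, -2.18 and -3.67 in the non-SMC lines and -7.28, -2.44 and -8.35 in the SMC lines. Here pair 2 stood apart, with a difference of -0.26 against -4.88 and -4.68, and 1 of 3 SMC arrays detected it; the mean was -3.27 ± 1.09 (adjusted p = 0.169). Bmp3 and Bmp5 had no probe detected on all arrays of a group and were not tested.

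Gdf15 and Gdf11 complete the ligands. Gdf15, a stress-induced cytokine of the family, read -3.56, 2.35 and 0.55 in the non-SMC lines and -5.52, -3.89 and -4.44 in the SMC lines. Its non-SMC lines spanned 5.91, and the lowest of them still lay above every SMC line; the difference of -4.40 ± 0.93 (adjusted p = 0.108) did not pass. Gdf11, a relative of myostatin, read -2.11, -4.38 and -3.94 in the non-SMC lines and -5.28, -4.75 and -4.50 in the SMC lines. The groups do not overlap but come within 0.12 of each other, and the difference was -1.37 ± 0.69 (adjusted p = 0.283). Of the 12 tested ligands, 2 were lower and none higher, and in 7 all SMC lines lay below all non-SMC lines (3.03% and 15.4% of all features). Among these 7, Inhba, Tgfb2 and Bmp4 entered the test through the non-SMC group alone.

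**Figure D2:**
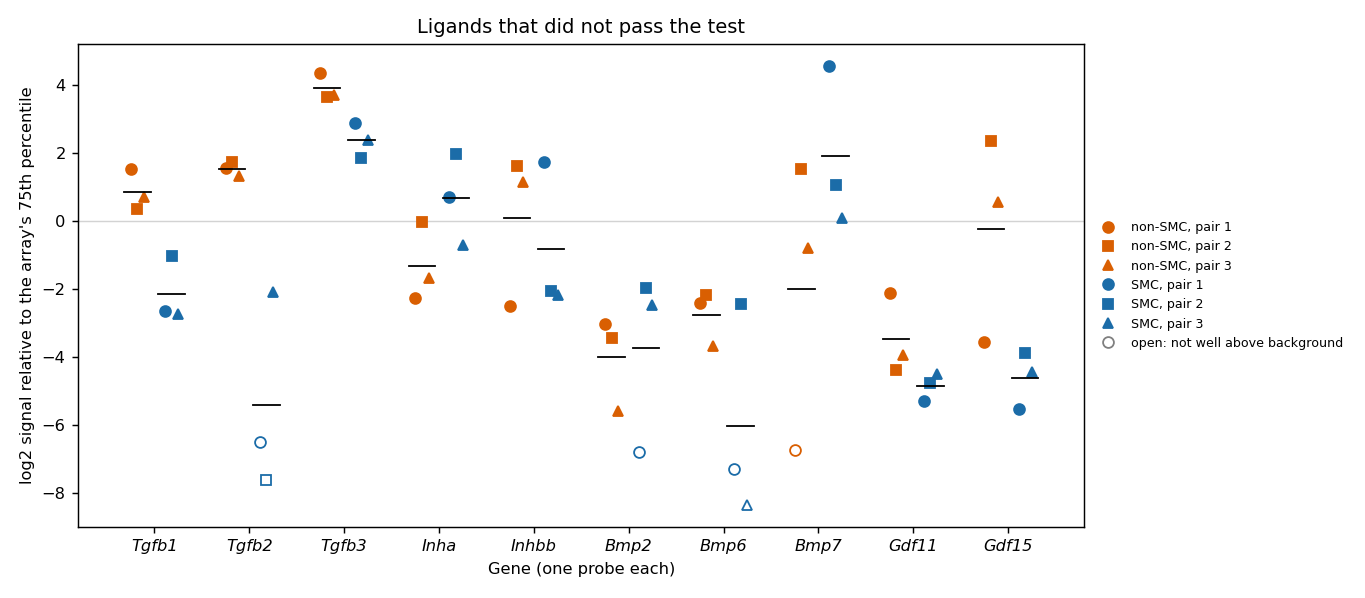
Levels of the 10 tested ligands that did not pass, on the vertical axis as log2 signal relative to the array's 75th percentile; each point is 1 line (orange non-SMC, blue SMC, shape by pair), open points were not well above background, and bars are group means. Tgfb1, Tgfb2, Tgfb3, Gdf11 and Gdf15 show no overlap between groups, whereas the Bmp7 lines of pair 1 lie at -6.72 and 4.57.

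Of the receptors, Tgfbr2 stood alone past the threshold. Tgfbr2 encodes the type II receptor that binds the TGF-betas. It read 3.45, 4.21 and 4.50 in the non-SMC lines and -7.99, -4.25 and -7.09 in the SMC lines. The non-SMC lines lay within 1.05 of each other, and the SMC line of pair 2 was the only SMC line detected. The difference was -10.50 ± 0.77 (adjusted p = 0.0154), -9.71 with dim signals at the floor and -10.48 on the shared slide (adjusted p = 0.0559). Tgfbr1, which encodes the type I partner, read 1.09, 1.84 and 1.43 in the non-SMC lines and 2.54, 1.69 and 2.19 in the SMC lines. Its groups overlap, all arrays detected it, and the difference was 0.68 ± 0.42 (adjusted p = 0.363). Over 22 alternatives it ranged from 0.30 to 1.10, and that of Tgfbr2 over 21 from -11.59 to -6.83. Tgfbr3, the coreceptor betaglycan, was dim in both groups, with means of -5.09 and -5.58.

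For 4 of the 7 tested activin and BMP receptors the groups overlapped by the brightest probe. The type I receptors Acvr1, Acvr1b and Bmpr1a and the type II receptor Acvr2a differed by -0.01, 0.23, 0.05 and 0.34, with adjusted p from 0.549 to 0.98. These p-values do not show equal levels, and the second Bmpr1a probe had the opposite sign (-0.81). The second Acvr2a probe differed by 1.23, with no overlap between groups. Bmpr2, the type II receptor of BMPs, read 1.05, 0.90 and 1.07 in the non-SMC lines and 0.30, 0.08 and 0.44 in the SMC lines. The pairs differed by -0.76, -0.82 and -0.63, with a mean of -0.73 ± 0.28 (adjusted p = 0.197). Acvr2b, a type II activin receptor, read -4.19, -1.57 and -3.76 in the non-SMC lines and -0.69, -0.63 and -0.38 in the SMC lines. It was higher in all SMC lines than in any non-SMC line (2.61 ± 0.65, adjusted p = 0.123), and it passed only with the non-SMC line of pair 2 left out and no pair in the fit (3.41, adjusted p = 0.00489). Bmpr1b, a type I BMP receptor, read -4.83, -4.87 and -4.66 in the non-SMC lines and -6.66, -8.41 and -7.78 in the SMC lines. It was detected on no SMC array and was at least 2.85-fold lower there, although the fitted difference of -2.83 ± 0.45 (adjusted p = 0.0698) did not pass. With normexp background correction the difference was -0.38, smaller than this bound. Acvrl1, a receptor best known from endothelium, was detected only in the non-SMC line of pair 3 and was not tested.

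Within the SMADs, Smad3 passed the test and its close relative Smad2 did not; the difference between them was not tested. Smad3 read 0.70, 0.91 and 1.22 in the non-SMC lines and -3.31, -2.06 and -1.50 in the SMC lines. All arrays detected it, the groups do not overlap, and the difference was -3.23 ± 0.39 (adjusted p = 0.0412), or 9.41-fold lower. A dimmer Smad3 probe, detected in 1 of 3 SMC lines, differed by -4.51; setting its dim signals to the floor gave -3.24. On the shared slide the difference was -3.75 (adjusted p = 0.064), and with the slide block its adjusted p was 0.0588. Smad2 read 1.58, 0.75 and 0.77 in the non-SMC lines and 0.75, 1.01 and 1.32 in the SMC lines, a difference of -0.01 ± 0.40 (adjusted p = 0.992). Smad4, the common partner, read 3.86, 3.50 and 3.39 in the non-SMC lines and 3.66, 3.77 and 4.42 in the SMC lines, with a difference of 0.37 ± 0.37 (adjusted p = 0.558). In both genes the groups overlap, and pair 1 has the opposite sign to pairs 2 and 3.

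The BMP SMADs Smad1 and Smad5 were detected on all arrays and differed by -0.20 and 0.30, with overlapping groups. The 3 Smad5 probes disagree in sign, at 0.30, 0.43 and -0.80. Smad9, the third BMP SMAD, read -4.10, -6.26 and -7.30 in the non-SMC lines and -3.50, -2.99 and -2.66 in the SMC lines. It was detected in all SMC lines and in the non-SMC line of pair 1 only, and every SMC line lay above every non-SMC line (2.84 ± 0.88, adjusted p = 0.154). Of 21 alternatives it passed in 1, with the non-SMC line of pair 1 left out and no pair in the fit (3.73, adjusted p = 0.0201). Of the inhibitory SMADs, which are also targets of the pathway, Smad7 read 1.57, 0.43 and 0.57 in the non-SMC lines and -1.17, -1.42 and -0.38 in the SMC lines. Its groups do not overlap, and the difference was -1.84 ± 0.46 (adjusted p = 0.123). Smad6 read 0.16, 0.82 and 0.83 in the non-SMC lines and -0.61, 0.29 and 0.10 in the SMC lines, with pairs between -0.77 and -0.53 (-0.68 ± 0.28, adjusted p = 0.22) and 1 SMC line above the lowest non-SMC line.

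Ligand storage and processing, a role of only 5 genes, held the largest share of lower genes, 3 of 5 (60%, against 3.03% of all features). Ltbp1, Ltbp2 and Ltbp3 encode latent TGF-beta binding proteins. Ltbp2, a matrix protein that unlike its relatives does not bind latent TGF-beta, read 3.59, 0.19 and 4.39 in the non-SMC lines and -5.21, -7.12 and -6.61 in the SMC lines. Of the SMC arrays 1 detected it, the non-SMC line of pair 2 was the lowest of its group, and the difference was -9.04 ± 0.80 (adjusted p = 0.0223); on the shared slide it was -8.45 (adjusted p = 0.118). Ltbp1 read 2.21, 1.65 and 2.24 in the non-SMC lines and -1.58, -3.84 and -3.94 in the SMC lines. All arrays detected it, at a difference of -5.15 ± 0.57 (adjusted p = 0.0338), with -4.08 by its second probe and -4.65 on the shared slide (adjusted p = 0.109). Ltbp3 read 4.11, 4.64 and 5.47 in the non-SMC lines and 0.69, 0.56 and 2.41 in the SMC lines. This gene stayed well above background in every SMC line at a difference of -3.52 ± 0.34 (adjusted p = 0.0271); its second probe gave -2.09, the shared slide -4.43 (adjusted p = 0.0259), and with the slide block the adjusted p was 0.0647.

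Ltbp4 and Bmp1 did not pass. Ltbp4 read 1.34, 2.82 and 2.18 in the non-SMC lines and 0.27, 2.88 and 4.74 in the SMC lines. Its SMC lines spanned 4.48, below, level with and above their partners in pairs 1 to 3 (-1.07, 0.06 and 2.56), with a mean of 0.52 ± 0.80 (adjusted p = 0.709). Bmp1 encodes a metalloproteinase that processes procollagen and not a ligand of the family. It read 4.35, 3.13 and 3.11 in the non-SMC lines and 2.96, 1.44 and 2.19 in the SMC lines, with groups that do not overlap and a difference of -1.33 ± 0.32 (adjusted p = 0.119); a second probe, on a noncoding transcript of the gene, differed by -2.20.

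Grem1, the BMP antagonist gremlin, was the only antagonist past the threshold. It read 0.29, -2.35 and 1.23 in the non-SMC lines and -5.27, -7.87 and -4.41 in the SMC lines. The lines of both groups spanned over 3 units, but the 3 pairs differed by -5.56, -5.52 and -5.64, and the paired difference was -5.57 ± 0.28 (adjusted p = 0.00821). The SMC line of pair 2 was not detected, and with dim signals at the floor the difference was -5.02. Its call depends on the pair: without it the same difference had an adjusted p of 0.0564. The difference was -6.01 on the shared slide (adjusted p = 0.173) and -2.96 with normexp background correction (adjusted p = 0.0653).

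Fstl1, a secreted glycoprotein of the follistatin family, read 5.52, 4.61 and 5.58 in the non-SMC lines and -2.62, -0.70 and 1.86 in the SMC lines. The non-SMC lines lay within 0.97 of each other and the SMC lines spanned 4.48, and the difference of -5.73 ± 0.95 (adjusted p = 0.0737) did not pass; it passed in 7 of 22 alternatives, the shared slide (-6.76, adjusted p = 0.0477) and the slide block among them. Follistatin, Fst, which binds activin, read -2.55, -1.14 and 0.70 in the non-SMC lines and -4.83, -5.56 and -3.61 in the SMC lines. Its groups do not overlap and its pairs differed by -2.28, -4.42 and -4.32 (-3.67 ± 0.56, adjusted p = 0.0632). Fstl3, another activin-binding protein, read -2.67, -1.59 and -0.94 in the non-SMC lines and -2.80, -2.66 and -2.53 in the SMC lines, with overlapping groups and a difference of -0.94 ± 0.41 (adjusted p = 0.235). Nog and Chrd, the BMP antagonists noggin and chordin, were dim in all lines, with group means between -4.85 and -4.03. Bambi, a pseudoreceptor that lacks a kinase domain, read 0.94, 1.05 and -0.76 in the non-SMC lines and 3.05, 2.54 and 2.69 in the SMC lines. It was higher in every SMC line than in any non-SMC line, at a difference of 2.35 ± 0.49 (adjusted p = 0.107).

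The nuclear repressors and ubiquitin ligases were all negative, and none passed (by limma, 4 of 5 were lower at an unadjusted p under 0.05, as were 11.8% of all features). Tgif1, a homeobox corepressor of SMADs, read -0.82, -0.33 and 0.08 in the non-SMC lines and -2.50, -1.96 and -3.10 in the SMC lines, a difference of -2.16 ± 0.45 (adjusted p = 0.107). Ski, a SMAD corepressor, read 2.75, 2.33 and 3.11 in the non-SMC lines and 2.16, 0.56 and 0.81 in the SMC lines, a difference of -1.55 ± 0.45 (adjusted p = 0.144), with -1.79 and -1.61 by its other probes. Its relative Skil read 2.12, 1.88 and 2.50 in the non-SMC lines and 1.43, 1.05 and 1.69 in the SMC lines, with pairs between -0.82 and -0.69 (-0.77 ± 0.28, adjusted p = 0.184). Smurf1, a ligase of SMADs and receptors, read 0.41, -0.24 and 0.49 in the non-SMC lines and -1.41, -1.17 and -1.06 in the SMC lines (-1.43 ± 0.33, adjusted p = 0.116). For these 4 genes no SMC line reached the lowest non-SMC line, whereas Smurf2 overlapped by its brightest probe, with a difference of -0.21. Its other probes differed by -0.29 and -0.62, the last of them with no overlap between groups.

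**Figure D3:**
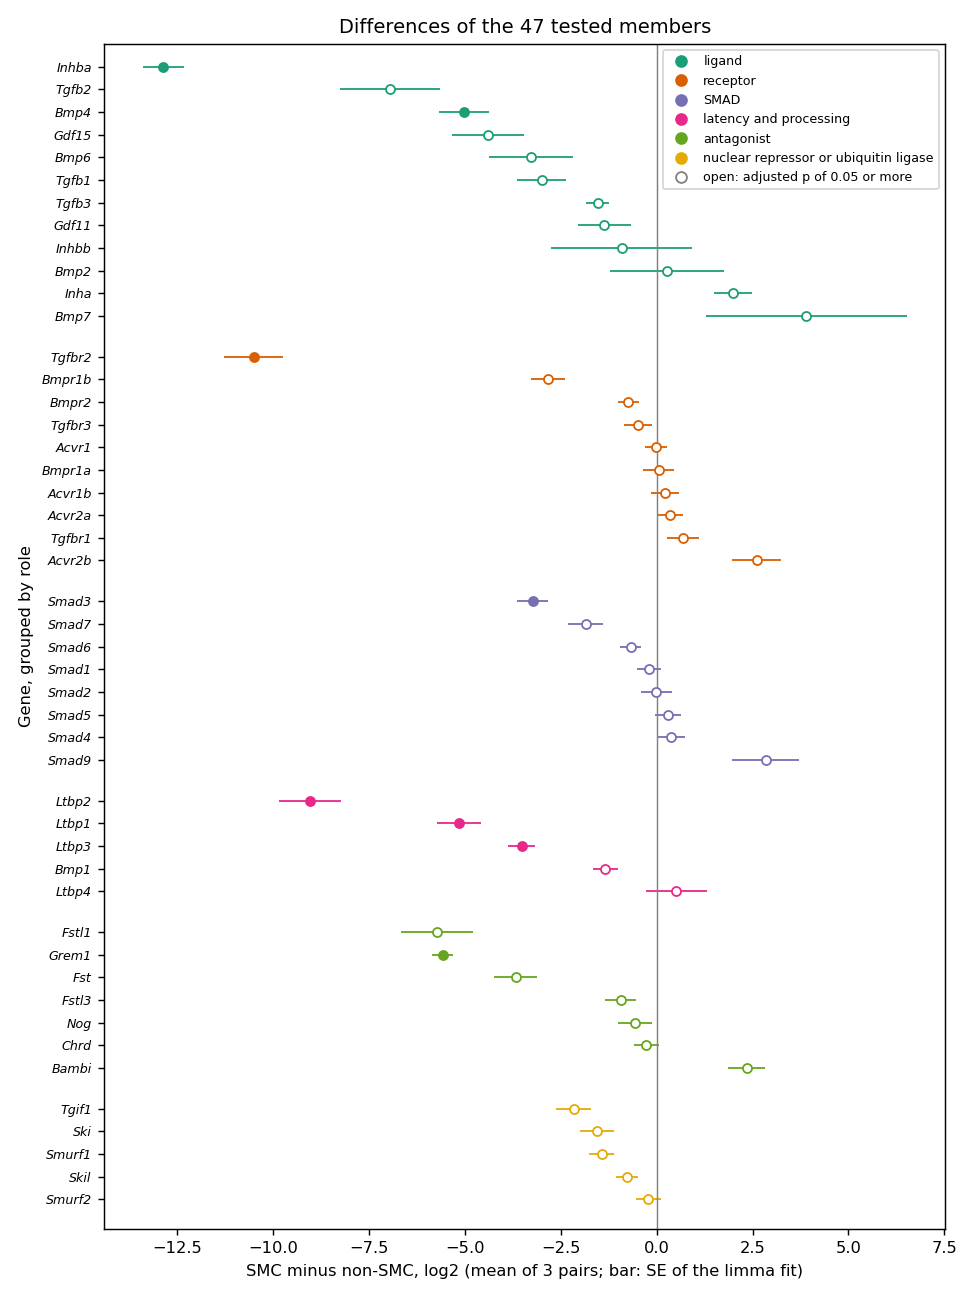
Differences of the 47 tested genes, SMC minus non-SMC in log2 units on the horizontal axis, by role and sorted within it; points are means of 3 pairs, bars the SE of the limma fit, filled points passed at an adjusted p under 0.05. The 8 filled points run from -12.86 (Inhba) to -3.23 (Smad3), and no point right of 0 is filled.

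The genes varied between pairs. The median absolute difference of the 47 was 1.82, 1.37 and 1.60 in pairs 1 to 3, against 0.88, 0.54 and 0.85 over all features. Of the 47 genes, 31 had 1 sign in all 3 pairs, as did 11012 of the 19848 features. The range over pairs was widest for Bmp7 (11.77), Inhbb (7.95), Bmp2 (6.91) and Tgfb2 (5.99), all ligands. Without pair 1, Inhba and Grem1 remained past the threshold, in a fit that called 207 features lower and 0 higher (1.04%). Without pair 2, Inhba, Tgfbr2, Ltbp2 and Grem1 did, with Tgfb1 and Bmp6, and 496 features were lower and 523 higher (5.13%). Without pair 3 limma called none of the 47, and none of the 19848 features. At an unadjusted p under 0.05 limma then put 18 of the 47 lower and 2 higher, and 1743 and 924 of all features. Each fit without a pair, whichever was left out, had 1 residual degree of freedom fewer. Normexp background correction, which raises dim signals, moved the differences of Inhba, Bmp4, Tgfbr2 and Ltbp2 to -7.75, -2.81, -6.83 and -5.85, and these 4 still passed. It also moved Tgfb2, Bmp6, Gdf11, Acvr2b, Smad9 and Fst to -4.45, -0.78, -0.64, 1.61, 0.75 and -2.22; of these only Tgfb2 passed with it. The sign of each of the 8 was negative in every alternative that gave a value.

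Without the pair in the fit, 13 of the 47 genes were lower (6.29% of all features were called in either direction): the 8 except Grem1, and Tgfb1, Tgfb2, Bmpr1b, Fstl1, Tgif1 and Smurf1. With a single line left out of that fit, 3 to 12 were lower. The fewest were lower without the non-SMC line of pair 3 (Inhba, Tgfbr2 and Ltbp2, with 2.26% of all features called). Leaving out the non-SMC line of pair 1 gave 5 lower, with Smad9 higher and 4.28% of all features called. Without the non-SMC line of pair 2, 12 were lower and 2, Acvr2b and Bambi, higher, in a fit that called 13.6% of all features.

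Other genes of the pathway were taken from lists set apart from the 50. Of 22 known TGF-beta target genes, all tested, 12 were lower (54.5%, against 3.03% of all features) and none higher, with a median difference of -7.06. By limma 19 were lower and 1 higher at an unadjusted p under 0.05, against 11.8% and 14.9% of all features. Ccn2, which encodes a matricellular protein, was detected on no SMC array and was at least 5800-fold lower (adjusted p = 0.0125). Col3a1 and Col1a1, both fibrillar collagens, were at least 2320-fold and 1530-fold lower (adjusted p = 0.0168 and 0.0115). Col1a2, the partner chain of Col1a1, remained above background in all SMC lines, at -11.76 ± 0.61 (adjusted p = 0.00848). The list also holds genes that did not pass: Klf10, an early response gene, lay between 2.43 and 2.97 in all 6 lines (difference 0.04), and Cdkn1a, the cell cycle inhibitor p21, differed by 2.38 (adjusted p = 0.156). Several of these targets are markers of mesenchymal cells too, and Col1a1, Col1a2, Col3a1, Fn1 and Postn stand in both lists, Acta2 and Tagln also among the smooth muscle markers, Tgm2 and Thbs1 also among the genes of latent TGF-beta activation, and Pmepa1 also among the other intracellular regulators.

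BMP target genes had a smaller median difference. Of 14 tested, 2 were lower (14.3%, against 3.03% of all features) and none higher, with a median of -0.53. By limma 5 were lower and 2 higher at an unadjusted p under 0.05, against 11.8% and 14.9% of all features. Smad6 and Smad7 are counted here as well. Runx2 and Gata3, transcription factors of bone and of T cells and epithelia, were at least 104-fold and 15.8-fold lower (adjusted p = 0.00704 and 0.0172). The ID genes, direct BMP targets, did not pass: Id1, Id2, Id3 and Id4 differed by 1.37, 2.43, -0.22 and 3.22. Id2 was higher in each SMC line than in its partner, at 1.68, 3.82 and 2.65 in the non-SMC and 4.92, 5.81 and 4.69 in the SMC lines (adjusted p = 0.0733). The difference between the target lists was not tested.

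Genes that release or modify latent TGF-beta were lower for 2 of 14 tested (median -5.04): Fbn1, the microfibril protein fibrillin 1, at -8.16 ± 1.02 (adjusted p = 0.0438, 1 of 3 SMC arrays detecting it) and the transglutaminase Tgm2 at -6.50 ± 0.55 (adjusted p = 0.0202). Other extracellular inhibitors were lower for 2 of 12 (median -0.56), the protease Htra1 at -10.04 ± 0.45 and the BMP-binding protein Bmper at -6.12 ± 0.73 (adjusted p = 0.00746 and 0.04). Of 7 other receptors and coreceptors, Vasn, which encodes the TGF-beta-binding membrane protein vasorin, was lower at -6.38 ± 0.39 (adjusted p = 0.012). Among 18 other intracellular regulators only the endocytic adaptor Dab2 passed, at -7.16 ± 0.43 (adjusted p = 0.0115). None of 7 tested other ligands passed by limma (1 was higher at an unadjusted p under 0.05, as were 14.9% of all features). The largest differences were 5.49 for Bmp8b and 1.32 for Bmp8a. No gene of these 5 lists was higher past the threshold, against 0.156% of all features. The share lower was 14.3%, 16.7%, 14.3%, 5.56% and 0% in the lists as ordered here, against 3.03% of all features.

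**Figure D4:**
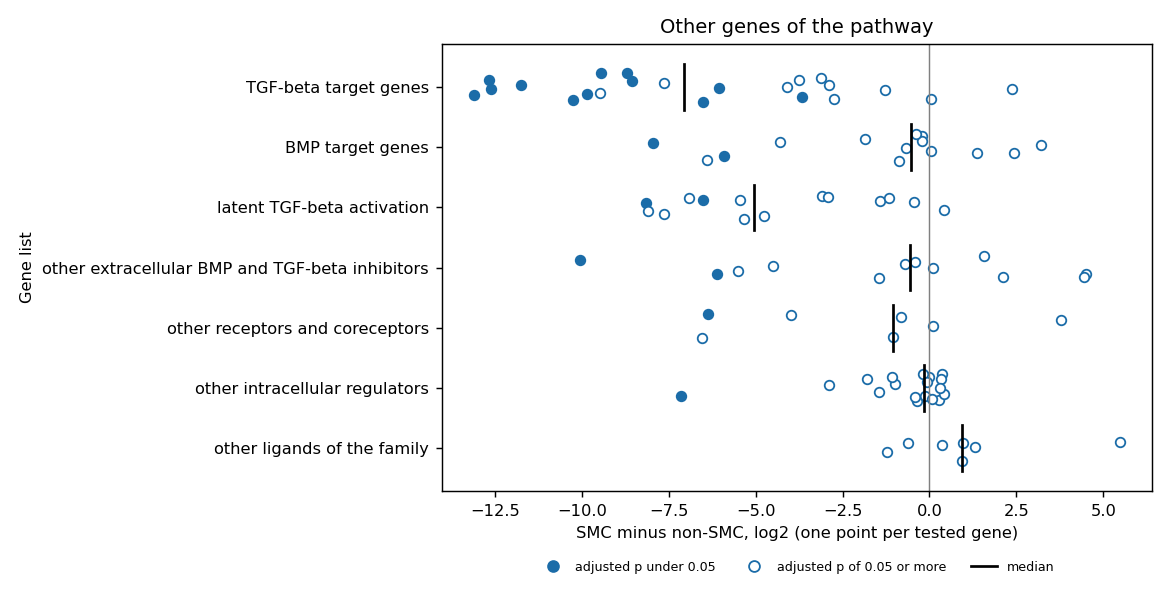
Differences of other genes of the pathway, SMC minus non-SMC in log2 units on the horizontal axis, 1 row per list; each point is 1 tested gene, filled if its adjusted p was under 0.05, and the bar is the list's median. The TGF-beta targets have their median at -7.06 with 12 filled points, and the BMP targets at -0.53 with 2.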

How the data were processed

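RNA of 3 non-SMC and 3 SMC lines was hybridised to 1-colour (Cy3) Agilent arrays of design 014868 and quantified with Feature Extraction 10.7.3.1, per the file headers (10.7 per the submitters' processing notes). The deposited intensity used is the processed signal, background-subtracted within the array and not normalized between arrays; the deposited median spot and background intensities entered 1 alternative. The deposited series table holds log2 values with the same median (5.06) in each column; each column correlated at 0.996 or more with its own array's processed signal and at most 0.96 with another, which settles its scale and direction. Further steps are not stated in the sources used here.

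Spots flagged as feature outliers and controls were left out, and spots of a probe were averaged. Kept probes were detected on every array of 1 group or of both. The array files hold no gene symbols, so a probe was named by its transcript accession in a RefSeq table (GRCm38.p6), which matched 27479 of 41174 probes. The brightest kept probe stood for a gene. limma 3.58.1 (R 4.3.3) was fitted with pair and group to the log2 processed signal scaled to each array's 75th percentile; p-values are two-sided and adjusted by Benjamini-Hochberg over the whole table (2 residual and 2.07 prior degrees of freedom). The number of arrays limits the precision. In simulated data of 19848 features with the same design, 53% of 100 features changed by 4 log2 units and 83% of 100 changed by 8 were recovered. The simulation had normal noise, few changed features and no floor for dim signals, so these rates need not hold for the real data. The labels give the pairs; within a pair, the lines' deviations had correlations of -0.013, 0.136 and -0.002, and between pairs -0.148 to 0.134. For "at least N-fold", each array of the dim group took its probe's level or the lowest detected level of that array, whichever was higher, before the group means were compared. Such a bound holds for the processed signal alone.

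The genes, lists and tests were chosen with earlier results of these data known. Values on all arrays are given for genes past the threshold, up to 4 further genes per role with the largest difference, and a set of core genes; from the other lists, up to 4 genes past the threshold, or the 2 largest differences where none passed. Klf10, Cdkn1a, the ID genes, Inhbb, Inha, Bmp2 and Gdf11 were added after their values were seen.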

Additional observations from a re-analysis of the deposited data

How the results depend on the processing

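Over 22 alternatives, 37 of the 47 tested genes kept their sign. Counts of lower and higher features were 602 and 31 as planned, and 8 and 0 of the pathway genes. Median scaling gave 974 and 239 features and 13 lower pathway genes; removing the replicate block gave 975 and 274 features and 13; no filter gave 383 and 7 features and 5; detection on all 6 arrays gave 135 and 4 features and 2, where 5 of the 8 are not tested and Smad3, still tested, had an adjusted p of 0.0502. Higher features numbered 54 with normexp, 54 with every probe a feature, 9 with the slide block and 20 on the shared slide, where 4 pathway genes were lower. Leaving out a pair or a line gave 0 to 1147 lower and 0 to 1559 higher features, and 0 to 12 lower and 0 to 2 higher pathway genes. The cause of these changes was otherwise not tested.

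The 10 genes that changed sign had no call in any setting. Acvr1 was at 0.036 by quantile normalization, 0.038 by the deposited values and 0.30 on the shared slide; Smad2 at 0.012, 0.012 and 0.12; Ltbp4 at -0.93 on the shared slide. Acvr1b was at -0.001 by normexp, Bmpr1a at -0.031 by median scaling and -0.38 by the mean of probes, and Smad5 at -0.023 by the mean of probes. With a pair or line left out, the ranges were -3.50 to 0.48 for Inhbb, -1.16 to 2.29 for Bmp2, -0.91 to 0.16 for Tgfbr3, -0.27 to 0.16 for Acvr1, -0.043 to 0.53 for Acvr1b, -0.29 to 0.40 for Bmpr1a, -0.29 to 0.41 for Smad2, -0.54 to 1.70 for Ltbp4 and -0.40 to 0.026 for Smurf2. Signals at background limit what can be said of Inhba, Tgfb2, Bmp6, Tgfbr2, Ltbp2 and Bmpr1b in SMC lines. The same limit holds in the SMC line of pair 2 for Bmp4, Grem1 and Tgfbr3, and in that of pair 1 for Bmp2.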
